A study of Mus musculus with 8 samples.

Results

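Toll-like receptors were followed in the olfactory bulb of mice that had been reared in 2 kinds of housing and had breathed clean air or diesel exhaust. Every noncontrol probe whose gene name on the array was Tlr1, Tlr2, Tlr3, Tlr4, Tlr5, Tlr6, Tlr7, Tlr8, Tlr9 or Tlr13 was taken, whatever its signal. This gave 10 genes with 14 probes on 24 spots, out of 34797 gene names with 55681 probes on 59305 noncontrol spots. All mice were male C57BL/6J. The C-C pool came from 7 mice kept in standard cages and clean air, and the C-DE pool from 7 mice of standard cages exposed to diesel exhaust. The EE-C pool came from 8 mice given environmental enrichment and clean air, and the EE-DE pool from 9 mice given enrichment and diesel exhaust. Enrichment was a larger cage with a running wheel, a house, blocks and tubing, provided from gestational day 14 of the dam onward. Offspring were weaned at postnatal day 27 and spent postnatal days 28 to 55 in the chambers, with diesel exhaust at 90 µg/m3 for 8 hours a day over 28 days in the exposed groups, and the bulb was taken at 56 days. RNA of the mice of a group was mixed into 1 pool and hybridised to 2 one-color arrays. The arrays of a pool are taken here as technical repeats, from the description of that pooling in the methods, since the sample labels only number them.

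Toll-like receptors are membrane proteins of innate immunity that recognise molecules of microbes and, in some cases, of damaged host cells. Tlr1, Tlr2, Tlr4, Tlr5 and Tlr6 act mainly at the cell surface, where they bind lipoproteins, lipopolysaccharide or flagellin, while Tlr3, Tlr7, Tlr8, Tlr9 and Tlr13 bind nucleic acids within endosomes. After ligand binding they recruit adaptors such as Myd88 and Ticam1, which lead to NF-κB and interferon regulatory factors and to the transcription of cytokines. In the brain, microglia are the cells best known for expressing them.

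Each probe was a 60-base oligonucleotide. The part of the probe shown for each of the following genes is a stretch of 30 bases, written 5′ to 3′ as the scanner files give it. The first group is shown because its probes of the same gene, Tlr7, gave different results, and only the first of these holds AATAAA, the hexamer of the usual polyadenylation signal, set in capitals. Probes of a gene are numbered by signal, from the brightest.
Tlr7 probe 1, bases 28 to 57: agagttcaatgaAATAAAagcccagagaac
Tlr7 probe 2, bases 31 to 60: gttgtcatggctcagattggtgggaaatca
Tlr7 probe 3, bases 31 to 60: gtttggggcagcaagagacatggctcagtg

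The second group holds the other member probes with the same hexamer, again in capitals, and the Tlr9 probe, which varied least of the compared members and lacks it.
Tlr2, bases 31 to 60: gggtaaatctgagaactgcAATAAAgtcct
Tlr3, bases 16 to 45: agacgtttatagAATAAAagataattgctt
Tlr13, bases 26 to 55: gtaagtaaccccAATAAAactcattggttc
Tlr9, bases 31 to 60: tctgtcttactacaccgctatttggcaagt

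AATAAA, searched on the probe strand alone, was found in 4 of the 14 member probes, in 10.1% of all 55681 noncontrol probes and in 14.7% of the 21709 probes that entered the comparisons. All 4 of these member probes were among the 8 that could be compared between groups, and none was among the 6 that could not. A match gives only the letters in the probe and not the use of a signal. The 14 probes had little sequence in common. Over 91 pairs the longest run of identical bases was 10, between Tlr7 probes 2 and 3, and the GC content ran from 26.7% for Tlr3 to 53.3% for Tlr9.

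The positions that follow are on the mouse build mm9, as the scanner files give them, and the exon or untranslated region under each probe was not analysed here. For the cell surface receptors, the Tlr1 probe (NM_030682) lies at chr5:65316115-65316174 on the minus strand and the Tlr6 probe (NM_011604) near it at chr5:65344365-65344424 on the same strand. The Tlr2 probe (NM_011905) lies at chr3:83640344-83640403 on the minus strand and was printed on 10 spots of each array. Tlr4 probe 1 (NM_021297) lies at chr4:66503470-66503529 on the plus strand and was printed on 2 spots. Tlr4 probe 2, designed on the transcript model ENSMUST00000107365, lies 86607 bases downstream at chr4:66590077-66590136. The Tlr5 probe (NM_016928) lies at chr1:184906031-184906090 on the plus strand.

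For the endosomal receptors, the Tlr3 probe (NM_126166) lies at chr8:46481729-46481788 on the minus strand. Tlr7 and Tlr8 are neighbours on the minus strand of chromosome X. Tlr7 probe 1 (NM_133211) lies at chrX:163742863-163742922 and starts at base 3686 of the transcript, and Tlr7 probe 2, on the same accession, lies at chrX:163743146-163743205 and starts at base 3403. They are thus 283 bases apart both in the genome and in the transcript. Tlr7 probe 3 (ENSMUST00000112161) lies 4068 bases further upstream at chrX:163747214-163747273 and starts at base 211 of its transcript model. Tlr8 probe 1 (ENSMUST00000049023) lies at chrX:163680626-163680685 and Tlr8 probe 2 (NM_133212) at chrX:163683356-163683415. The Tlr9 probe (NM_031178) lies at chr9:106128979-106129038 and the Tlr13 probe (NM_205820) at chrX:103355773-103355832, both on the plus strand.

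Levels below are on a log2 scale, as the processed signal of a probe over the 75th percentile of the noncontrol spots of its array, so that 0 marks a probe as bright as that percentile. The percentile lay between 644 and 716 intensity units on the 8 arrays. The arrays shared 1 slide. Both standard-cage pools lay in its first column and both enriched pools in its second, and the clean-air arrays lay above the diesel arrays in each column, so housing, exposure and position on the slide cannot be told apart. On array 1 of EE-DE, 56.7% of the noncontrol spots were well above background, against 68.0 to 70.6% on the other 7, and its median background was 29 against 21 to 24 intensity units. Diesel exhaust was compared with clean air in standard cages, as C-DE/C-C, and in enriched housing, as EE-DE/EE-C. Enrichment was compared with standard cages under clean air, as EE-C/C-C, and under diesel exhaust, as EE-DE/C-DE. Where 4 differences are listed they follow this order. With 1 pool a group no test between groups was possible, and each log2 fold change is given with its range over the 4 pairings of single arrays, which on that reading holds labelling and array error but no variation between mice. Markers of bulb neurons were measured for 12 of 12 genes and no probe of them was past 1.5-fold in any comparison, the brightest being Pcp4 at 6.56 to 6.72. Markers of olfactory mucosa, a tissue next to the bulb, were also measured for 12 of 12 genes, and 8 of their 13 probes were past 1.5-fold lower with exposure in standard cages and 8 past 1.5-fold higher with enrichment under diesel exhaust, against 0.576% and 0.636% of all 21709 compared probes in either direction. In both cases these were probes of Cyp2g1, Cyp2f2, Ugt2a1, Sec14l3, Krt8, Krt18 and Cnga4, while Omp, the brightest marker, differed by −0.13 and 0.20 there. With exposure in enriched housing 5 were past 1.5-fold higher, against 0.944% of all (Cyp2g1, Cyp2f2, Sec14l3, Krt18 and Cnga4), and under clean air 2 were lower with enrichment, against 0.825% (Cyp2g1 and Sec14l3), but the pairings of single arrays crossed 0 in all of these except Cnga4 (0.03 to 1.41). Cyp2g1, for one, differed by 1.30 (−0.13 to 2.73) and −0.69 (−2.23 to 0.84), and its EE-C duplicates were at 1.27 and −0.79.

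Signal well above background on all 8 arrays was found for 8 of the 14 probes, representing 7 of the 10 genes: Tlr1, Tlr2, Tlr3, Tlr4 (probe 1), Tlr7 (probes 1 and 2), Tlr9 and Tlr13. Tlr5 and Tlr6 were well above background on 7 of 8 arrays, and Tlr8 on none. None of the 8 compared probes reached 1.5-fold in any of the 4 comparisons. The plot of levels by array shows these 8 probes.

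**Figure D1:**
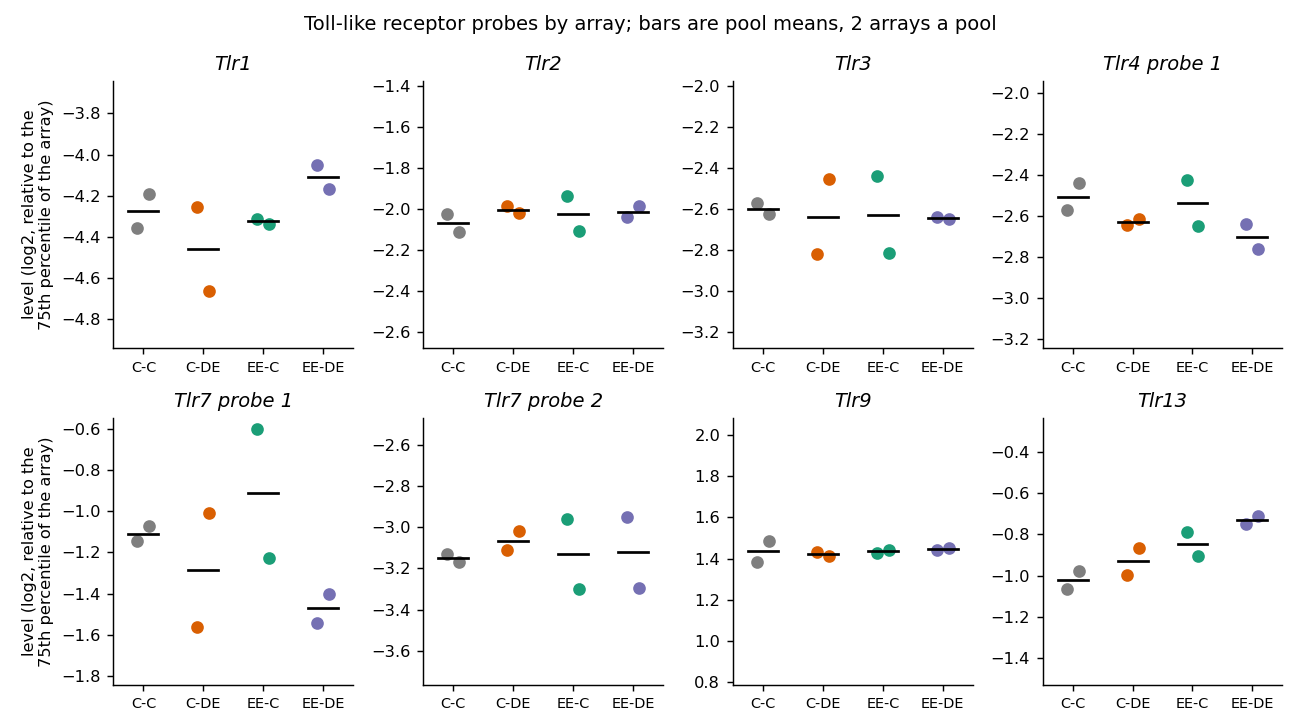
Level of the 8 Toll-like receptor probes that were well above background on all 8 arrays, in log2 relative to the 75th percentile of each array. Points are single arrays, 2 for each pool, and bars are pool means, and all panels span the same log2 width. Tlr9 lay between 1.38 and 1.49 on all 8 arrays, while the arrays of Tlr7 probe 1 spread from −1.56 to −0.60.

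Among the cell surface receptors, Tlr2, which pairs with Tlr1 or Tlr6 to bind bacterial lipoproteins, was measured most precisely, as its level is a mean over 10 spots. It was −2.03 and −2.11 on the C-C arrays, −1.99 and −2.02 on C-DE, −1.94 and −2.11 on EE-C, and −2.04 and −1.99 on EE-DE. The 4 pool means lay within 0.06 of each other, which was smaller than the gap of 0.17 between the duplicate arrays of EE-C. Tlr2 differed by 0.06 (0.00 to 0.13) with exposure in standard cages and by 0.01 (−0.10 to 0.12) with exposure in enriched housing.

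The 10 Tlr2 spots also show how well 1 spot measures a level on each array. Their SD was 0.19 on array 1 of EE-C and between 0.04 and 0.09 on the 7 other arrays. On array 1 of EE-C the spots ran from −2.17 to −1.51, a range of 0.66. The noncontrol spots around each Tlr2 spot deviated there from their own means over the 8 arrays, with medians of −0.13 to 0.18. After each spot was corrected by the median deviation of its neighbours, an alternative added once the data had been seen, the SD there was 0.12 and the EE-C mean of that array moved from −1.94 to −1.97. The difference in EE-DE/EE-C stayed below 1.5-fold with this correction for all 8 probes.

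**Figure D2:**
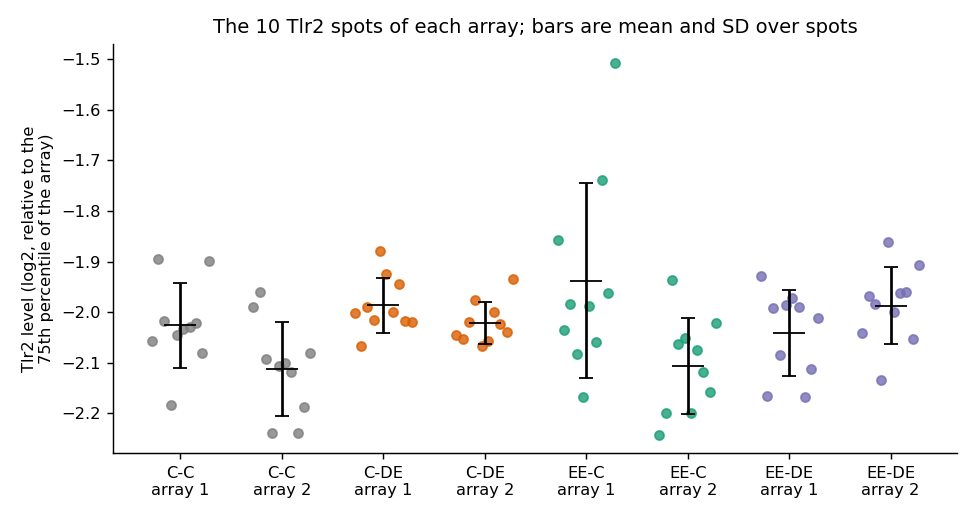
Levels of the 10 Tlr2 spots on each of the 8 arrays, in log2 relative to the 75th percentile of the array, with horizontal order inside an array of no meaning. Bars give the mean and SD over spots, which is 0.19 on array 1 of EE-C and at most 0.09 on the other arrays.

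Tlr1, the partner of Tlr2 for triacylated lipopeptides, had the dimmest probe that could be compared, with signals of 26.1 to 43.1 intensity units. Its level was −4.36 and −4.19 in C-C, −4.26 and −4.66 in C-DE, −4.31 and −4.34 in EE-C, and −4.05 and −4.17 in EE-DE. Both EE-DE arrays were above the 6 others, and array 2 of C-DE was below all others. Tlr1 differed by −0.19 (−0.47 to 0.10) with exposure in standard cages, where the arrays overlapped, by 0.21 (0.15 to 0.28) with exposure in enriched housing and by 0.35 (0.09 to 0.61) with enrichment under diesel exhaust, where they did not. The difference between both exposure effects was 0.40, with a range of 0.05 to 0.75 over the 16 combinations of single arrays. It was 0.60 without array 1 of C-DE, 0.20 without array 2 of C-DE, and 0.14 with a normexp background correction in place of the deposited one. With normexp the differences were also smaller with exposure in standard cages (−0.02), with exposure in enriched housing (0.12) and with enrichment under diesel exhaust (0.09).

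Tlr4, the receptor for lipopolysaccharide, was measured by probe 1. Its level was −2.57 and −2.44 in C-C, −2.64 and −2.62 in C-DE, −2.43 and −2.65 in EE-C, and −2.64 and −2.76 in EE-DE. The diesel pools had the lower means in both housings. The difference was −0.12 (−0.20 to −0.04) with exposure in standard cages and −0.16 (−0.34 to 0.01) with exposure in enriched housing, and the arrays overlapped in the second, while normexp gave −0.07 for each. Tlr4 probe 2, on the transcript model further downstream, was not well above background on any array, with signals of 1.68 to 5.42.

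Tlr6, the partner of Tlr2 for diacylated lipopeptides, gave signals of 31.1 and 30.5 in C-C, 27.9 and 25.4 in C-DE, 28.3 and 29.8 in EE-C, and 28.9 and 33.6 in EE-DE. Tlr5, the flagellin receptor, gave 15.8 and 11.9 in C-C, 17.9 and 13.7 in C-DE, 16.3 and 17.7 in EE-C, and 11.7 and 12.7 in EE-DE. Both were well above background on every array except array 1 of EE-DE, where the lowest signal flagged well above background was 27.4, against 8.60 to 10.74 on the other 7 arrays. They were therefore kept out of the comparisons, although their signals were positive and significant on all 8 arrays. Both EE-DE arrays of Tlr5 were below both EE-C arrays, a difference of −0.52 (−0.64 to −0.40), and its arrays overlapped in C-DE/C-C, at 0.24 (−0.23 to 0.71). The Tlr5 difference between both exposure effects was −0.76 (−1.35 to −0.17), past 1.5-fold, but 1 of the EE-DE values behind it was not well above background. Tlr6 differed by −0.15 (−0.31 to 0.00) with exposure in standard cages and by 0.06 (−0.09 to 0.21) with exposure in enriched housing.

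**Figure D3:**
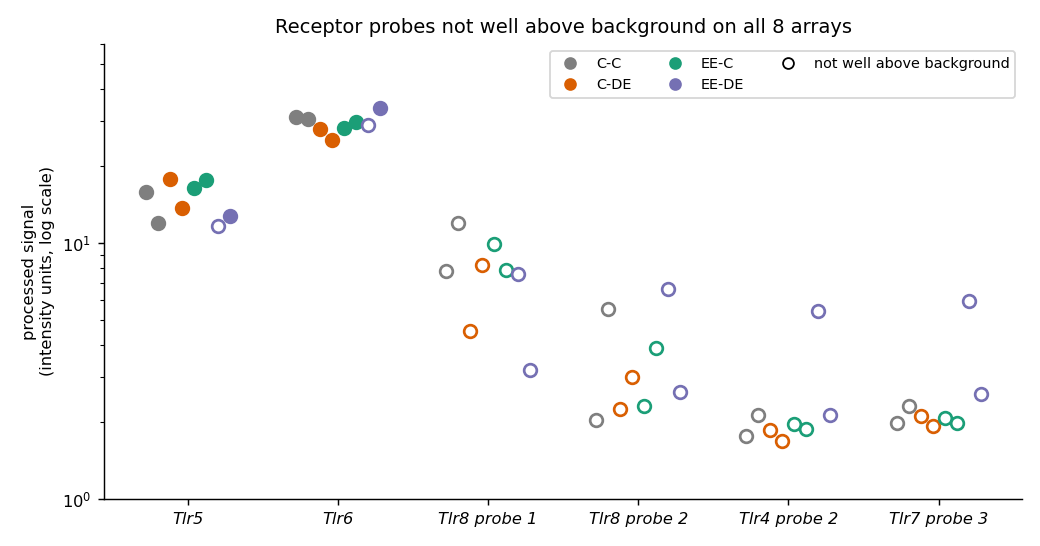
Processed signal (intensity units, log scale) of the 6 Toll-like receptor probes that were not well above background on all 8 arrays. Each point is 1 array, colored by group, and open points were not well above background. Tlr5 and Tlr6 are open on 1 EE-DE array each, and the other probes are open on all arrays, with signals of at most 12.0.

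Among the endosomal receptors, Tlr9, which recognises unmethylated CpG DNA, had the steadiest level. It was 1.38 and 1.49 in C-C, 1.43 and 1.41 in C-DE, 1.43 and 1.44 in EE-C, and 1.44 and 1.45 in EE-DE, from signals of 1702 to 1979. Whether this probe binds Tlr9 RNA alone was not tested. All 8 arrays thus lay within 0.10, a range of 1.07-fold, and the pool means within 0.02. The differences were −0.01 (−0.07 to 0.05) with exposure in standard cages and 0.01 (0.00 to 0.02) with exposure in enriched housing.

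Tlr3, which recognises double-stranded RNA and signals through Ticam1, lay at −2.57 and −2.62 in C-C, −2.82 and −2.45 in C-DE, −2.44 and −2.82 in EE-C, and −2.64 and −2.65 in EE-DE. The pool means lay within 0.05, while the duplicates of EE-C were 0.37 apart, so that the spread between pools was far below the spread between arrays of 1 pool. The differences were −0.04 (−0.25 to 0.17) with exposure in standard cages and −0.02 (−0.21 to 0.18) with exposure in enriched housing.

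Tlr13, which recognises bacterial ribosomal RNA, was higher in the enriched pools. Its level was −1.06 and −0.98 in C-C, −0.998 and −0.87 in C-DE, −0.79 and −0.91 in EE-C, and −0.75 and −0.71 in EE-DE. Under each air treatment both enriched arrays lay above both standard-cage arrays, by 0.17 (0.07 to 0.28, 1.13-fold) under clean air and by 0.20 (0.12 to 0.29, 1.15-fold) under diesel exhaust. The difference with exposure was smaller, at 0.09 (−0.02 to 0.20) in standard cages and 0.12 (0.04 to 0.20) in enriched housing. The pool mean was lowest in C-C, then C-DE, then EE-C, and highest in EE-DE. The arrays of C-C overlapped with those of C-DE, and those of C-DE with those of EE-C. Under 6 other settings the Tlr13 difference with enrichment ranged from 0.17 to 0.20 under either air treatment, and leaving out single arrays gave 0.11 to 0.23 under clean air and 0.14 to 0.27 under diesel exhaust.

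Tlr7, a receptor for single-stranded RNA, was measured by probes 1 and 2, which differed in what they showed. Probe 1 had a level of −1.15 and −1.07 in C-C, −1.56 and −1.01 in C-DE, −0.60 and −1.22 in EE-C, and −1.54 and −1.40 in EE-DE. Array 1 of EE-C was far above the others, and array 1 of C-DE lay with the EE-DE arrays. The duplicates of EE-C were 0.63 apart and those of C-DE 0.56, against 0.07 in C-C and 0.14 in EE-DE. The gap in EE-C was the only one among the 8 probes past 1.5-fold, which 2.12% of all 21709 probes reached in that pool. It exceeded the spread of the 4 pool means, 0.56.

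Probe 2 of Tlr7, from the same transcript, had a level of −3.13 and −3.17 in C-C, −3.11 and −3.02 in C-DE, −2.96 and −3.30 in EE-C, and −2.95 and −3.30 in EE-DE. Its pool means lay within 0.08, and its EE-C and EE-DE arrays were nearly the same pair of values. In C-DE/C-C probe 1 differed by −0.18 (−0.49 to 0.14) and probe 2 by 0.08 (0.02 to 0.15). With enrichment under diesel exhaust they differed by −0.19 (−0.53 to 0.16) and −0.06 (−0.28 to 0.16), and with enrichment under clean air by 0.20 (−0.15 to 0.55) and 0.02 (−0.17 to 0.21).

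The probe 1 difference in EE-DE/EE-C, −0.56 with a range of −0.94 to −0.18, was the member difference nearest to the 1.5-fold threshold of 0.585, and 98.9% of all compared probes differed less there. Probe 2 differed by 0.01 (−0.34 to 0.35) in the same comparison. The probe 1 value rested in large part on array 1 of EE-C. Without that array it was −0.25, without array 2 of EE-C it was −0.87, and without array 2 of EE-DE it was −0.63. Under 6 settings that kept all arrays it ran from −0.59 with a mean of linear signals, just past 1.5-fold, to −0.43 with normexp. The spots around Tlr7 probe 1 had median deviations of −0.01 to 0.03 on the 8 arrays, highest on array 1 of EE-C. The neutrophil markers described below also summed higher on array 1 of EE-C, to 10.3, than on its duplicate, at 3.96. Of the microglia and border macrophage markers, P2ry12 (0.75 and 0.48), Fcrls (0.52 and 0.22), Trem2 (2.11 and 1.67) and F13a1 (−0.25 and −0.86) were also higher there than on the duplicate. Others were lower there, among them C1qa (1.55 and 1.69), Itgam (brightest probe, 5.15 and 5.20), Tmem119 (0.64 and 0.67) and Lyve1 (−4.24 and −3.91). P2ry12 and F13a1 differed by −0.27 and −0.46 in EE-DE/EE-C, but Trem2 by −0.05 and C1qa by 0.22. In that comparison 12 of 20 microglia probes and 2 of 7 border macrophage probes were higher. Over the whole lists the sums were 235 and 228 for microglia and 7.66 and 4.66 for border macrophages on those arrays. The largest part of the border macrophage sums came from Cbr2, at 2.13 and 0.95 there. Its difference in EE-DE/EE-C was 0.69 (−0.17 to 1.55), in the other direction from Tlr7 probe 1. The marker genes named here were picked after their values were seen, and the part of any of these markers in the Tlr7 value was not tested. Probe 3 of Tlr7 was not well above background on any array, with signals of 1.93 to 5.95.

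Tlr8, which lies beside Tlr7, was not well above background on any array. Its probe 1 gave signals of 7.81 and 12.0 in C-C, 4.54 and 8.19 in C-DE, 9.89 and 7.85 in EE-C, and 7.54 and 3.18 in EE-DE, positive and significant on all 8 arrays. Its probe 2 gave signals of 2.04 to 6.63, positive and significant on 3. No fold change is given, since both sides of each comparison are below that limit.

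Exposure to diesel exhaust in standard cages was followed by C-DE/C-C. None of the 8 receptor probes was past 1.5-fold there, where 0.576% of the 21709 compared probes were. Their differences lay between −0.19 (Tlr1) and 0.09 (Tlr13), with a median of −0.03 against −0.01 over all compared probes. The arrays of both pools did not overlap for 3 of 8 probes, of which Tlr2 and Tlr7 probe 2 were higher and Tlr4 lower, and 40.9% of all compared probes had such a gap.

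Exposure in enriched housing was followed by EE-DE/EE-C. Again 0 of 8 probes were past 1.5-fold, against 0.944% of all, and 1 was (Tlr7 probe 1) with a mean of linear signals. The differences ran from −0.56 (Tlr7 probe 1) to 0.21 (Tlr1), with a median of 0.01 against −0.01. Arrays did not overlap for 4 of 8 probes, with Tlr1, Tlr9 and Tlr13 higher and Tlr7 probe 1 lower, against 34.2% of all. The Tlr9 difference of 0.01 turned to −0.06 with a normexp background correction. In the difference between both exposure effects 0 of 8 probes were past 1.5-fold, against 1.48% of all, and the range left out 0 for Tlr1 alone, which was so for 15.9% of all probes.

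Housing was compared under clean air by EE-C/C-C and, among exposed mice, by EE-DE/C-DE. No receptor probe was past 1.5-fold in either, against 0.825% and 0.636% of all. Under clean air the arrays did not overlap for Tlr13 alone, 1 of 8 against 37.7% of all, and under diesel exhaust for Tlr1, Tlr9 and Tlr13, 3 of 8 against 42.2%. All of these were higher with enrichment, which was so for 20.2% and 21.2% of all probes, but the Tlr9 difference of 0.02 under diesel exhaust turned to −0.01 with normexp. The 4 comparisons share pools with each other, so that 1 array, such as array 1 of EE-C, enters more than 1 of them.

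**Figure D4:**
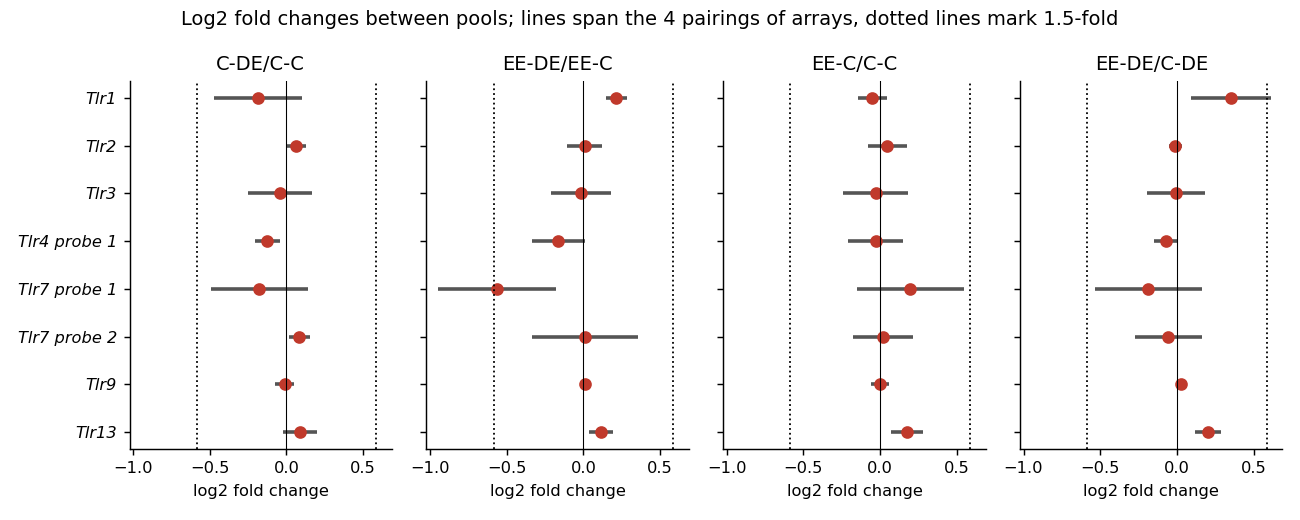
Log2 fold changes of the 8 compared Toll-like receptor probes in the 4 comparisons. Points are differences of pool means, lines span the 4 pairings of single arrays, and dotted lines mark 1.5-fold. No point lies outside the dotted lines, and Tlr7 probe 1 in EE-DE/EE-C, at −0.56, lies nearest to them.

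The arrays also held the other mouse receptors of the family that were listed. Tlr12 was well above background on all 8 arrays, with levels of −2.32 to −2.18, and differed by −0.03, −0.09, 0.03 and −0.03 in the 4 comparisons. Tlr11 was well above background on none, with signals of 2.42 to 6.72.

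The proteins around the receptors were followed with 6 lists holding 70 genes, of which 56 were measured by 69 probes well above background on all arrays. Of the 69 probes, 1 was past 1.5-fold with exposure in standard cages (Cxcl10), 0 with exposure in enriched housing, 0 with enrichment under clean air and 1 with enrichment under diesel exhaust (Cd36), all higher, against 0.576%, 0.944%, 0.825% and 0.636% of all compared probes in either direction. The median over the 69 probes was 0.01, 0.00, 0.02 and 0.02 in the 4 comparisons, against −0.01, −0.01, 0.01 and 0.00 over all compared probes. Genes of the lists that are named below although they were neither past 1.5-fold nor the brightest of their list were chosen after their values were seen.

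Co-receptors and ligand carriers were measured for 5 of 6 genes, Cd180 being the exception. Cd36, a scavenger receptor that serves Tlr2 with Tlr6, was at −3.95 and −4.09 in C-C, −4.38 and −4.22 in C-DE, −3.81 and −4.30 in EE-C, and −3.74 and −3.57 in EE-DE. Both EE-DE arrays lay above the 6 others, and the difference was 0.64 (0.47 to 0.80) in EE-DE/C-DE. The probe was dim, with a mean level of −4.01 against −4.29 for Tlr1, and no value with normexp is given for it. The difference between both exposure effects was 0.66 (0.19 to 1.14). Lbp, which carries lipopolysaccharide to Cd14 and Tlr4, was highest in EE-C, at −2.12 and −2.14, against −2.38 and −2.50 in C-C, −2.49 and −2.62 in C-DE, and −2.43 and −2.53 in EE-DE. It differed by 0.31 (0.24 to 0.38) with enrichment under clean air and by −0.35 (−0.41 to −0.29) with exposure in enriched housing. Ly86, the brightest of the list, which binds Cd180, lay between 1.68 and 1.85 on all 8 arrays.

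Trafficking and processing genes of the endosomal receptors were all measured, 8 of 8, and none was past 1.5-fold in any comparison. Unc93b1, the chaperone that brings Tlr3, Tlr7, Tlr9 and Tlr13 to endosomes, was at 0.13 and 0.06 in C-C, 0.13 and 0.14 in C-DE, 0.21 and 0.22 in EE-C, and 0.34 and 0.23 in EE-DE. As for Tlr13, both enriched arrays lay above both standard-cage arrays under each air treatment, by 0.12 (0.08 to 0.16) and 0.15 (0.10 to 0.21). Of all compared probes, 20.2% and 21.2% were higher without overlap in these comparisons. Hsp90b1, another chaperone of the list, lay lower without overlap in both, by −0.09 (−0.10 to −0.07) and −0.14 (−0.17 to −0.11). Ctsb, a cathepsin protease and the brightest of the list, differed by −0.08 with exposure in standard cages and −0.03 with exposure in enriched housing.

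Adaptors and kinases were measured for 16 of 19 genes by 23 probes, with Ticam2, Irak4 and Ikbke below the limit, and none was past 1.5-fold. Myd88, the adaptor of all members here but Tlr3, lay between −0.86 and −0.72 on the 8 arrays and differed by 0.00, 0.04, −0.02 and 0.03 in the 4 comparisons. Irak2, a kinase that acts after Myd88, had a pair of probes that differed in what they showed. With enrichment under clean air the brighter one differed by 0.19 and the other by −0.03, and with exposure in standard cages by 0.19 and 0.13. Tab1, a partner of the kinase Map3k7 and the brightest of the list, stayed between 2.80 and 3.01.

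Transcription factors, measured for 10 of 11 genes with Rel below the limit, and negative regulators, measured for 10 of 10, also held no probe past 1.5-fold. Their medians lay between −0.01 and 0.04 and between −0.04 and 0.04 in the 4 comparisons. The brightest were Jun, a subunit of AP-1, at 3.52 to 3.75, and Tollip, which dampens signalling by Irak1, at 2.75 to 2.95. Jun differed by 0.00 with exposure in standard cages and −0.08 with exposure in enriched housing, and the brightest Tollip probe by −0.03 in both. The other Tollip probes differed by −0.15 and 0.08 with exposure in standard cages and by 0.06 and −0.18 in enriched housing.

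Cytokines and enzymes induced by the receptors were measured for 7 of 16 genes. Tnf, Il1b, Il6, Il12a, Il12b, Il10, Ifnb1, Cxcl1 and Cxcl2 were on the array but below the limit on at least 1 array. Cxcl10, an interferon-induced chemokine and the brightest of the list, was at −1.85 and −2.01 in C-C and at −1.53 and −0.84 in C-DE, and at −1.55 and −1.49 in EE-C and −1.08 and −1.59 in EE-DE. The C-DE arrays were both above the C-C arrays but lay far from each other. The EE-DE arrays lay on either side of the EE-C arrays. Of the other 6 genes none was past 1.5-fold in any comparison.

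**Figure D5:**
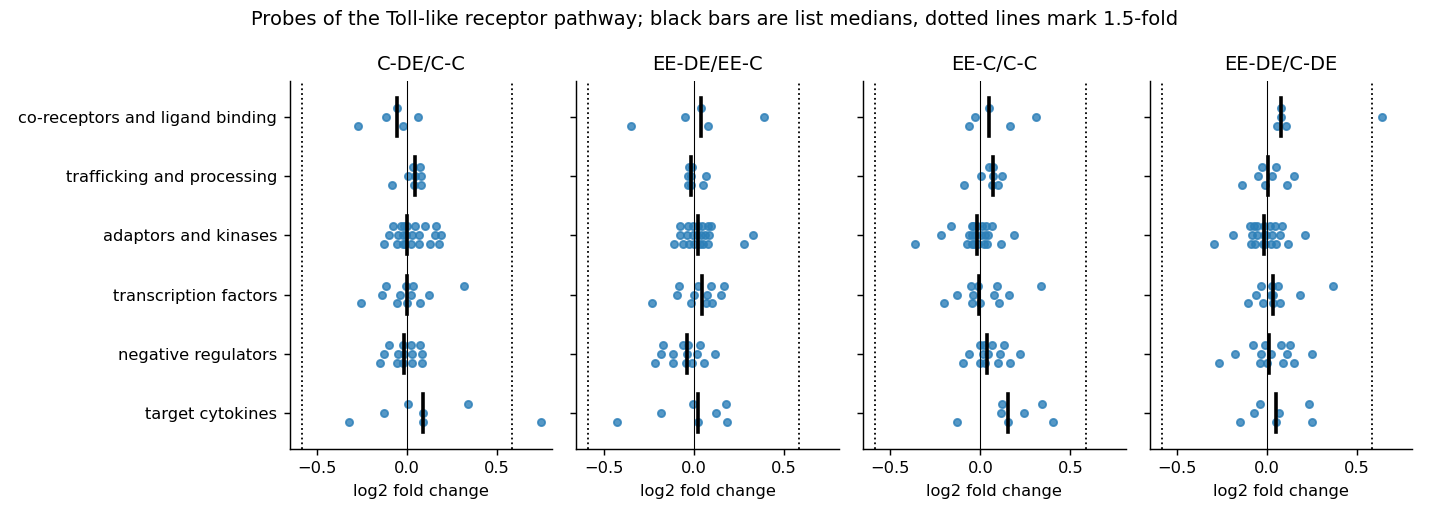
Log2 fold changes of the 69 probes of 6 lists of the Toll-like receptor pathway in the 4 comparisons, 1 point a probe. Black bars are list medians and dotted lines mark 1.5-fold. Only Cxcl10 with exposure in standard cages, at 0.74, and Cd36 with enrichment under diesel exhaust, at 0.64, lie outside the dotted lines.

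Cells known to carry these receptors were followed by their markers. In RNA of a whole bulb, fewer cells of a type and less RNA per cell cannot be told apart. Microglia markers were measured for 14 of 14 genes by 20 probes, and none was past 1.5-fold in any comparison, with medians of −0.03, 0.01, 0.01 and 0.04 in turn. The sum of their linear levels was 239 to 246 in C-C, 214 to 235 in C-DE, 228 to 235 in EE-C and 214 to 223 in EE-DE, in units of the 75th percentile. Most of that sum came from Siglech, a lectin of microglia and the brightest marker, at 6.92 to 7.19, and from 1 of 3 probes of the integrin Itgam, at 5.44 and 5.25 in C-C and 4.997 to 5.20 in the other pools.

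Neutrophil markers were measured for 9 of 10 genes by 10 probes, S100a9 being the brightest. All 10 probes were lower with exposure in standard cages, 6 of them past 1.5-fold, against 0.576% of all compared probes, and all 10 were higher with enrichment under diesel exhaust, 6 past 1.5-fold, against 0.636%. In both cases these were S100a8, S100a9, Ltf, Ngp, Mpo and Retnlg. The pairings crossed 0 for Ngp in both (−1.51 to 0.05 and −0.47 to 1.82) and for Retnlg with exposure in standard cages (−1.39 to 0.14). With exposure in enriched housing 9 of the 10 probes were lower (median −0.33), 0 past 1.5-fold, against 0.944% of all. With enrichment under clean air all 10 were higher (median 0.29), 1 past 1.5-fold, against 0.825%. This was Mpo, at 0.79 (−0.27 to 1.85). The arrays did not overlap for 1 of the 10 probes in each of these 2 comparisons. Their summed linear level was 4.78 to 5.73 in C-C, 3.05 to 3.42 in C-DE, 3.96 to 10.3 in EE-C and 4.16 to 6.36 in EE-DE. The olfactory mucosa markers summed to 112 to 133 in C-C, 104 to 117 in C-DE, 122 to 134 in EE-C and 130 to 135 in EE-DE. Most of that sum came from Omp, at 5.81 to 6.15, and Gng13, at 5.47 to 5.76, whereas the median difference over the 13 mucosa probes was −0.95, 0.58, −0.19 and 1.26 in turn. Tlr1 and Cd36 had their lowest pool mean in C-DE as well, and the part of neutrophils or mucosa in these differences was not tested. Border macrophage markers were measured for 6 of 7 genes, all but Cd163, and of their 7 probes only both of Cbr2 were past 1.5-fold, lower with exposure in standard cages and higher with exposure in enriched housing and enrichment under diesel exhaust. With exposure in enriched housing the pairings of both probes crossed 0, at 0.69 (−0.17 to 1.55) for the brighter one, whose EE-C duplicates were at 2.13 and 0.95. The medians of the list were −0.04, −0.09, 0.12 and 0.14 in turn. B cell markers were measured for 3 of 6 genes. With enrichment under diesel exhaust Vpreb3 differed by 0.61 (0.49 to 0.73), the only one past 1.5-fold in any of the 4 comparisons, Cd79b by 0.25 and Cd79a by −0.29. Endothelial and astrocyte markers, 6 of 6 genes each with Cldn5 and Aldoc the brightest, held none past 1.5-fold.

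The pattern of Tlr7 probe 1, which had the widest spread of pool means among the members, was set against that of every other compared probe. The measure was the root mean square difference of the levels on the 8 arrays, each probe centred on its own mean. The most similar were Lmx1b at 0.08, Gm6567 at 0.11 and Il12rb2 at 0.12, where the centred levels of Tlr7 probe 1 itself had a root mean square of 0.30. These 8 arrays stand for 4 pools, so that likeness includes the gap between duplicates. The 3 genes were selected for this likeness out of 21709 probes, and how close unrelated probes would come was not tested. Lmx1b, a homeobox transcription factor, had −2.77 on array 1 and −3.16 on array 2 of EE-C and −3.50 and −3.05 on the C-DE arrays, with duplicate gaps in the same direction as Tlr7 probe 1. Gm6567 had −3.56 and −4.34 on the EE-C arrays, and Il12rb2, a subunit of the interleukin-12 receptor, −3.05 and −3.49.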

How the data were processed

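Cy3-labelled RNA of 4 pools was hybridised to 8 one-color Agilent mouse arrays of 62976 spots. The authors deposited the intensity of every spot as output by Agilent Feature Extraction 10.7.3.1, which had removed local background and spatial trend inside an array, per the file headers, without scaling arrays to each other. A series table of log2 values, normalised by the authors, was also deposited. After the same steps its values lay within 0.02 of the values used here on all 8 arrays for 99.4% of 21709 probes, with column medians of −0.01 to 0.02, and for the member probes the largest difference was 0.014.

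Processed signals were divided by the 75th percentile of the noncontrol spots on their array and log2 transformed. Spots with a GenBank or RefSeq accession were kept if no array flagged them as outliers and every array flagged them well above background (23956 spots), and spots of a probe were averaged to 21709 probes. No spot was saturated. The number of arrays, 2 for each pool, limits the precision. Differences are between means of 2 arrays, with the range over single-array pairings. A probe was called at 1.5-fold, the threshold given in the study's results. No p-value was computed, because each group was 1 pool. The calculation was tested on simulated data.

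All 14 member probes are named, with the list genes past 1.5-fold, the brightest of each list, and the 3 symbols most similar to the member with the widest spread of pool means. The members and lists were chosen with earlier results of these data known. Of the member probes, 11 carried RefSeq accessions, and RefSeq gave the same symbol for all 11. Alternatives were quantile normalisation, scaling on the median of detected spots, normexp with offset 50 (limma 3.58.1, R 4.3.3), the series table, linear averaging, outlier flags kept, other filters on dim probes, a 2-fold threshold, a call only when every pairing passed, and each array left out. Other steps used Python 3.11.15, numpy 2.4.6 and pandas 2.3.3.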

Additional observations from a re-analysis of the deposited data

How the results depend on the processing

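The count of 8 member probes well above background on all arrays and the counts of 0 past 1.5-fold in each comparison depended mainly on the filter for dim probes. With member probes kept when positive and significant on all 8 arrays, 1 probe (Tlr8 probe 1) was past 1.5-fold with exposure in standard cages, 1 (again Tlr8 probe 1) with exposure in enriched housing and 1 (Tlr5) in the difference between both exposure effects, none of them well above background on every array. With no filter the counts were 1 for exposure in standard cages, 3 for exposure in enriched housing, 3 for enrichment under diesel exhaust and 4 for the difference. With a mean of linear signals, 1 probe was past 1.5-fold in EE-DE/EE-C, Tlr7 probe 1 at −0.59. Leaving out 1 array gave 0 to 1 probes in EE-DE/EE-C and 0 to 2 in the difference between both exposure effects. These were Tlr7 probe 1 in EE-DE/EE-C without array 2 of EE-DE (−0.63) or array 2 of EE-C (−0.87), and, in the difference, Tlr1 (0.60) and Tlr7 probe 1 (−0.66) without array 1 of C-DE and Tlr7 probe 1 (−0.70) without array 2 of EE-C. The count in EE-C/C-C was 0 under every setting run.

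Of 240 fold changes recomputed under settings that kept all arrays, 1 passed 1.5-fold, and of 192 recomputed with 1 array left out, 5 did. No test was made. No paired analysis was possible, because each group is 1 pool and its numbered arrays are taken as technical repeats of it. On the EE-C arrays the neutrophil markers summed to 10.3 and 3.96 and the bulb neuron markers to 350 and 349. Whether both arrays held the same RNA was not tested. Signals of Tlr1, Tlr5, Tlr6 and Tlr8 were low, and with the arrays taken so none of these values holds the variation between mice.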
